A study of Mus musculus with 8 samples.

Results

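The Bex and Tceal genes Bex1, Bex2, Bex3, Bex4, Tceal1, Tceal3, Tceal5, Tceal6, Tceal8 and Tceal9 were followed in sorted bone marrow cells of adult C57Bl6 mice. They are 10 of 24011 genes measured, and all 10 had a probe set. One group of 4 arrays held RNA of Lin+ cells, sorted for antigens of maturing blood cells. The other 4 held RNA of HSC-enriched cells, a sort that concentrates haematopoietic stem cells (HSCs). By the sample labels the HSC-enriched cells were LSK cells (negative for lineage markers, positive for Sca-1 and Kit) that were positive for CD105 and negative for CD48, while the design text gives CD150 in place of CD105. No treatment, genotype or sex is given, and nothing says whether the samples of a group came from separate animals, so p-values cover no more than the spread among these arrays, part of which may be technical. The genes were proposed with the difference between HSC-enriched and Lin+ arrays already known, so that difference is given for them as a description, without a test.

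Bex genes ("brain expressed X-linked") encode small, largely unstructured proteins that act as adaptors in signalling, and are best known from neurons. Bex3, also called NADE, was found as a partner of the neurotrophin receptor p75, which Bex1 binds too, and Bex2 has been described in a complex with the haematopoietic regulator Lmo2. Tceal genes are named for their similarity to the transcription elongation factor TFIIS (Tcea), and Tceal9 was earlier known as Wbp5, a binding partner of WW domains. Both families lie side by side on the X chromosome of placental mammals, among the Armcx, Gprasp and Arxes families.

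Levels are log2 values as deposited, and array medians ran from 5.22 to 5.33. The 95th percentile of 1091 olfactory receptor genes, which blood cells hardly use, was 5.11 and served as a guide to background. The sort was visible in the antigen genes: Kit, Eng (CD105) and Slamf1 (CD150) were higher by 3.20, 2.96 and 1.79 in HSC-enriched cells and Cd48 was lower by 3.69, whereas Ly6a (Sca-1) was not analysed here. HSC-enriched arrays were unequal in neutrophil transcripts, whose 12 genes averaged 6.82 and 6.71 on HSC-enriched replicates 1 and 2, with 9.40 and 9.21 on the others. On Lin+ arrays they averaged 11.64 to 11.91. HSC-enriched replicate 3 was also the highest of its group in 8 B cell genes (6.47, others 4.76 to 4.94) and 7 erythroid genes (5.902, others 4.82 to 5.43). In bulk samples, fewer cells that use a gene and less of its RNA per cell cannot be told apart.

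The promoters of these genes are printed first because several are near copies of each other. Promoter windows of 300 bases (250 before to 50 after an annotated start, RefSeq, GRCm38.p6) were found for all 10 members, 14 windows in all, with 3 each for Tceal3 and Tceal5. The windows of Bex1 (chrX:136215464-136215763, minus strand) and Bex4 (chrX:136138746-136139045, plus strand) share an identical run of 271 bases, and those of Bex2 (chrX:136068187-136068486, minus strand) and Bex3 (chrX:136270003-136270302, plus strand) one of 162 bases. Capitals mark the shared run in each pair.
Bex1: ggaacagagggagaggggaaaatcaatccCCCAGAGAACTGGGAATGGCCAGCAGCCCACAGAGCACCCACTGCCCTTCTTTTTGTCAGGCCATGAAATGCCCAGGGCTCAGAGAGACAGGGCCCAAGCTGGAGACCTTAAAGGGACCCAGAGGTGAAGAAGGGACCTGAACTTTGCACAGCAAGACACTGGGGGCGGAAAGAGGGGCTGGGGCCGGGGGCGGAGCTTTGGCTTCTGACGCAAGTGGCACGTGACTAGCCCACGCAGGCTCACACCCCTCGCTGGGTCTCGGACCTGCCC
Bex4: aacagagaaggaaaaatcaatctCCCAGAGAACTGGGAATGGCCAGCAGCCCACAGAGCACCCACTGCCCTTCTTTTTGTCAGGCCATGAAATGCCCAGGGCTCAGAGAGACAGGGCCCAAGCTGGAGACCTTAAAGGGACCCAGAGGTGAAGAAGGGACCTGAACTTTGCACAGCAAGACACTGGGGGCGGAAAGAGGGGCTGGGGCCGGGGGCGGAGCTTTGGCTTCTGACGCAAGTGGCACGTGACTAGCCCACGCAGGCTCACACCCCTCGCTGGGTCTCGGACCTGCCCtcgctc
Bex2: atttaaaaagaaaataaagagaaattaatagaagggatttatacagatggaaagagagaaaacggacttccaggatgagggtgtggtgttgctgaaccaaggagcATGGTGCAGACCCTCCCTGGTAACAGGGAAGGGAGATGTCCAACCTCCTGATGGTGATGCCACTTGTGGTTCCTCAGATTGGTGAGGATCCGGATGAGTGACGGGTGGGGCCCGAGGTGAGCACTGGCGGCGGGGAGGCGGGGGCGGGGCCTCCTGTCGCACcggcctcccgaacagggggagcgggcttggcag
Bex3: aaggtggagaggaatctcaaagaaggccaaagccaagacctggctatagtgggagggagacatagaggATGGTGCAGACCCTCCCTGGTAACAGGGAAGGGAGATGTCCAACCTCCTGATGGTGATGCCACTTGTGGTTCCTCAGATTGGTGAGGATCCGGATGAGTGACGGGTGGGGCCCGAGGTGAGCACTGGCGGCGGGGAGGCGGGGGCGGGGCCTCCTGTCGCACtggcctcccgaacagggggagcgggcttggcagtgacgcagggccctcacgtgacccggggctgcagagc

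Across the 14 windows, the word of 8 bases held by most members on either strand was CACGTGAC (reverse complement GTCACGTG), present in 8 of the 10 genes. It contains the E-box CACGTG, a palindrome recognised by several basic helix-loop-helix proteins. Of all 27025 genes with a window, 2.55% hold CACGTGAC and 8.09% hold CACGTG. Each of the 8 genes has an E-box that follows the word TGACG, the core of a cyclic AMP response element, at a distance of 7 or 9 bases, and Tceal6 has another E-box without it. The distance is 7 bases in Bex1, Bex4, Tceal3, Tceal5, Tceal6 and Tceal8 and 9 bases in Bex3 and Tceal1. The following extracts of 30 bases show TGACG and CACGTG in capitals, the members first and then 3 Armcx genes.
Bex1: ttcTGACGcaagtggCACGTGactagccca
Bex4: ttcTGACGcaagtggCACGTGactagccca
Tceal3: gggTGACGcggtgttCACGTGaccggccag
Tceal5: tggTGACGttcctgtCACGTGatcaggagc
Tceal6: gggTGACGctttgctCACGTGactggcttg
Tceal8: tgaTGACGcgatcctCACGTGaccagcagt
Bex3: gTGACGcagggccctCACGTGacccggggc
Tceal1: gTGACGcgctcccctCACGTGaccaggagc
Armcx1: tggTGACGtgcccctCACGTGagccgaagc
Armcx6: tggTGACGtggctgtCACGTGaccaagagc
Armcx4: aTGACGcggagccccCACGTGacccggagc
On the minus strand they lie at chrX:136215502-136215531 for Bex1, chrX:136203885-136203914 for Tceal5, chrX:135210687-135210716 for Tceal6, chrX:136172220-136172249 for Tceal8 and chrX:134751431-134751460 for Armcx6. On the plus strand they lie at chrX:136138972-136139001 for Bex4, chrX:136666363-136666392 for Tceal3, chrX:136270265-136270294 for Bex3, chrX:136707966-136707995 for Tceal1, chrX:134717920-134717949 for Armcx1 and chrX:134686501-134686530 for Armcx4 (GRCm38.p6).

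The pair TGACGNNNNNNNCACGTG, read on both strands, is in windows of only 17 of the 27025 genes (0.0629%), which include 6 members, Armcx1 and Armcx6. The pair with the longer distance, TGACGNNNNNNNNNCACGTG, is in 6 genes (0.0222%), which include 2 members and Armcx4. Measured from the first base of the E-box, each of these member genes has a pair between 15 bases before and 28 bases after an annotated start. Bex1 and Bex4 hold the pair within their shared run, so their sites are not independent. Tceal8 and Tceal1 share a run of 14 bases that spans the E-box. Whether the other sites are independent of each other was not tested. The windows of Bex2 and Tceal9 hold neither pair and no E-box, though TGACG alone is in both. None of the other 42 X-chromosome neighbours with a window holds either pair, and 7 of them hold CACGTG. The GC content of member windows was 47.0% to 65.3%, with a median of 56.3%, against a median of 52.7% over all 32851 windows. Pairs, words and distances were picked after the sequences were seen, and a match is a description of letters.

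**Figure D1:**
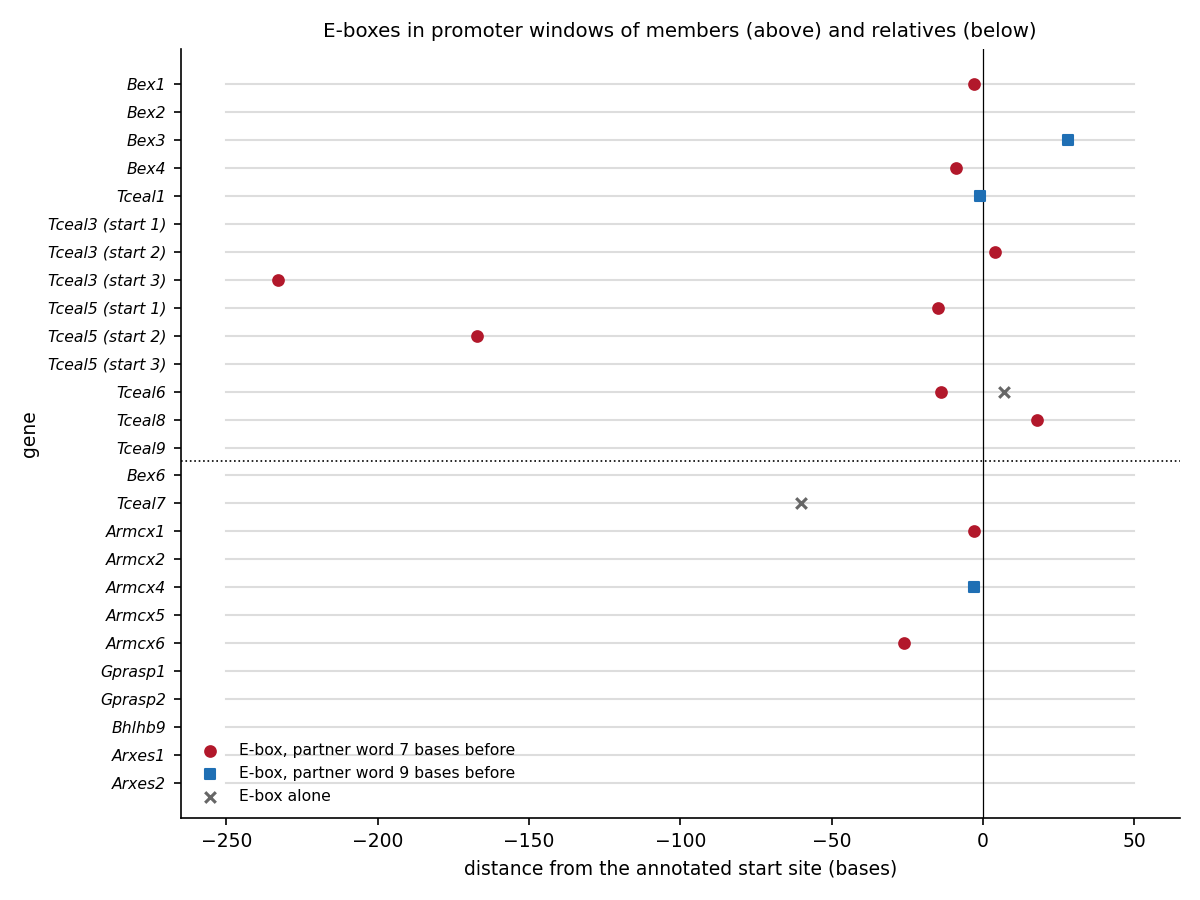
Position of the first base of each E-box (CACGTG) in promoter windows, by distance from the annotated start in bases, for the 10 members above the dotted line and their relatives below it. Circles mark an E-box with TGACG 7 bases before it, squares one with 9 bases between, crosses an E-box alone; most sites lie within 28 bases of a start, and the distant ones of Tceal3 and Tceal5 are the same sites counted from another start.

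All 4 Bex members had higher means in HSC-enriched than in Lin+ cells. Bex1 stood at 5.37, 5.57, 5.31 and 5.13 on Lin+ replicates 1 to 4 and at 9.88, 10.38, 10.08 and 10.43 on HSC-enriched replicates 1 to 4. The groups were separated by a gap of 4.31, and every HSC-enriched array was far above every Lin+ array. The means were 10.19 ± 0.26 and 5.35 ± 0.18 (log2, SD, n = 4), a difference of 4.85 with a standard error of 0.15, or 28.8-fold. Only 3 of the 24011 genes had a larger difference in this direction, which places Bex1 at rank 4 by difference.

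Bex2 was under the olfactory guide on all 4 Lin+ arrays (4.01, 4.90, 3.97 and 4.41) and above it on all 4 HSC-enriched arrays (7.44, 7.28, 6.69 and 7.29). Its difference was 2.85 ± 0.23 (standard error), a fold of 7.21 that rests on a Lin+ mean near background. Bex3, whose promoter shares 162 bases with that of Bex2, was bright in both populations. It stood at 9.26, 9.51, 9.06 and 9.04 on Lin+ arrays and at 10.87, 11.01, 10.96 and 10.75 on HSC-enriched arrays. The groups did not overlap, and the difference was 1.68 ± 0.13, or 3.21-fold.

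Bex4 was the most variable member. It read 3.10, 3.69, 3.67 and 4.72 on Lin+ arrays, all under the guide, and 6.90, 6.59, 6.14 and 4.34 on HSC-enriched arrays. HSC-enriched replicate 4 was below the guide and below Lin+ replicate 4, so the groups overlapped. The mean difference was 2.20 ± 0.52, rising to 2.75 when HSC-enriched replicate 4 was left out and to 2.95 when replicate 3 was left out as well. Bex1, which shares 271 bases of promoter with Bex4, was at its highest on that same replicate 4 (10.43). Paralogues as similar as these can share probes, and probe sequences were not used here.

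**Figure D2:**
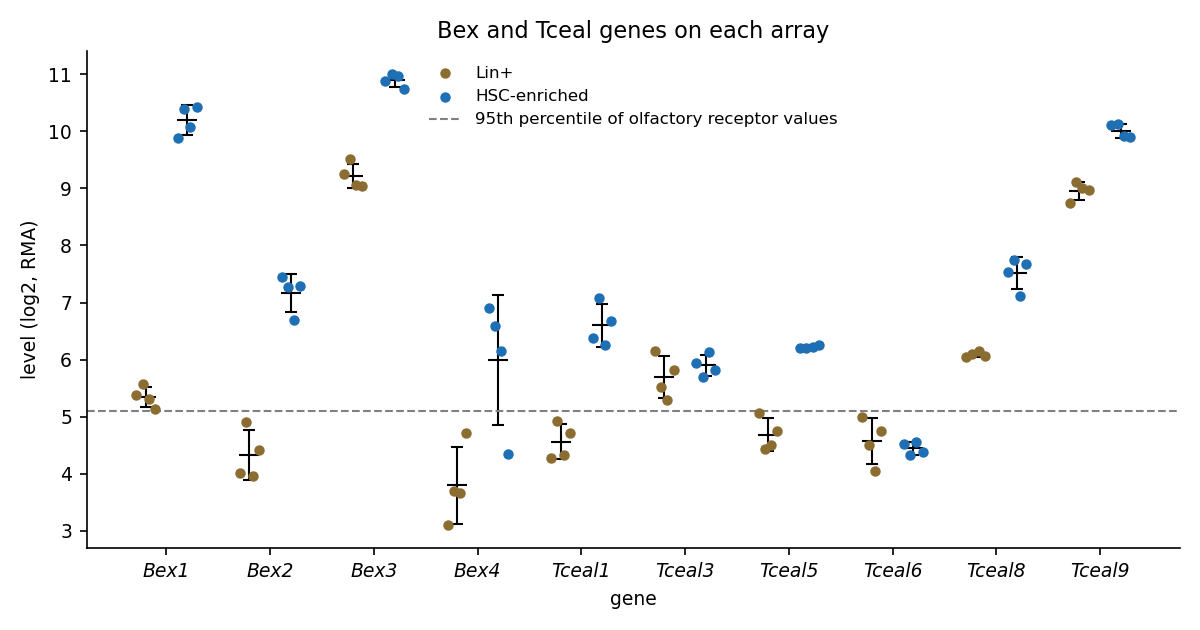
Log2 level of each member on each array (points; Lin+ brown, HSC-enriched blue), with the mean and SD of 4 arrays in black and the olfactory guide at 5.11 as a dashed line. Bex1 shows the widest separation, Bex4 a single low HSC-enriched array at 4.34, and Tceal3 and Tceal6 overlapping groups.

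The 6 Tceal members fell into those with separate groups and those without. Tceal1, described as a modulator of transcription, read 4.27, 4.92, 4.34 and 4.72 on Lin+ arrays and 6.37, 7.09, 6.25 and 6.68 on HSC-enriched arrays. It thus went from under the guide on every Lin+ array to above it on every HSC-enriched array, with a difference of 2.04 ± 0.21. Tceal5 was at 5.07, 4.43, 4.50 and 4.76 against 6.20, 6.20, 6.23 and 6.26, a difference of 1.53 ± 0.14. Its HSC-enriched arrays lay within an SD of 0.03, the tightest of any member in either group.

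Tceal8 was above the guide in both populations, at 6.05, 6.10, 6.16 and 6.07 on Lin+ arrays and at 7.54, 7.74, 7.11 and 7.68 on HSC-enriched arrays. Its difference was 1.42 ± 0.14, with HSC-enriched replicate 3 the lowest of its group. Tceal9 was bright in both, at 8.74, 9.11, 8.999 and 8.97 against 10.12, 10.12, 9.91 and 9.90. The groups did not overlap, and the difference of 1.06 ± 0.11 is a fold of 2.08.

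Tceal3 and Tceal6 did not separate the populations. Tceal3 read 6.15, 5.51, 5.29 and 5.82 on Lin+ and 5.94, 5.70, 6.13 and 5.82 on HSC-enriched arrays, a difference of 0.21 ± 0.18. Tceal6 read 5.00, 4.51, 4.04 and 4.74 against 4.53, 4.33, 4.56 and 4.38, all under the guide, with a difference of -0.12 ± 0.18. Both carry the promoter pair with 7 bases between, as do Bex1 and Tceal8.

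Counted together, 7 of the 10 members had all 4 HSC-enriched arrays above all 4 Lin+ arrays, against 15.9% of all genes and 17.5% of X-linked genes. None had all HSC-enriched arrays below, which 13.0% of all genes and 8.58% of X-linked genes did. In mean level, 8 were at least 2-fold higher, against 4.89% of all genes and 6.51% of X-linked genes. The shares of all genes and of X-linked genes include the members. Because the genes were chosen on this contrast, these counts of members describe the choice. The median difference of the 10 was 1.61, and that of all genes was 0.02. Members averaged 7.58, 7.64, 7.41 and 7.35 on HSC-enriched replicates 1 to 4 and 5.53 to 5.84 on Lin+ arrays. With HSC-enriched replicates 3 and 4 left out, which carried more neutrophil RNA, the median was 1.64 and Bex1 stood at 4.78.

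Genes of the same or neighbouring families, and the genes around the members on the X chromosome, were listed by family and position, with earlier results of these data known. They were tested in the fit of all genes (limma, Benjamini-Hochberg over all 24011 genes, here and below). In total 15.5% of all genes were called higher and 12.4% lower at an adjusted p under 0.05. Of 13 relatives, 8 rose and 0 fell, with a median of 1.07. All 8 belong to the Armcx, Gprasp and Arxes families, and 7 of them rose at least 2-fold. The remaining Bex and Tceal genes, Bex6 and Tceal7, did not pass.

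Gprasp2, of a family named as sorting proteins of G protein-coupled receptors, stood at 4.36, 4.39, 4.10 and 4.47 on Lin+ arrays and 7.53, 7.33, 7.60 and 7.09 on HSC-enriched arrays. Every HSC-enriched array was above every Lin+ array, and Gprasp2 rose by 3.06 ± 0.14 (adjusted p = 3.15e-07). All 4 Lin+ arrays were under the guide for Gprasp2, as they were for Arxes2, Armcx1 and Nrk below, so the sizes of these differences rest on Lin+ levels near background. Bhlhb9, also called Gprasp3, rose by 1.83 ± 0.15 (adjusted p = 7.53e-06), and Gprasp1 rose by 1.07 ± 0.17 (adjusted p = 0.000902). Gprasp1 and Armcx5 have the same 300 bases as promoter window. Armcx5 differed by 0.51, short of the threshold (adjusted p = 0.102). Leaving out HSC-enriched replicate 4 brought it past (0.66, adjusted p = 0.0317).

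Among Armcx genes, which encode armadillo-repeat proteins, some of them of mitochondria, Armcx2 rose the most, from 6.25 ± 0.20 to 7.999 ± 0.14 (adjusted p = 3.92e-06). Armcx6 rose by 1.47 and Armcx1 by 1.19 (adjusted p = 0.000263 and 0.00213). Armcx4 passed with a difference of 0.39 (adjusted p = 0.0172), with both means under the guide. That call was lost when replicate 2 of either group was left out. The adjusted p was 0.0535 without the Lin+ one and 0.0516 without the HSC-enriched one, and it was 0.0568 with the replicate number as a block. Armcx3 (0.23) did not pass.

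Arxes2 read 3.60, 3.69, 3.57 and 3.41 on Lin+ arrays and 7.31, 6.50, 7.27 and 7.36 on HSC-enriched arrays, and rose by 3.54 ± 0.19 (adjusted p = 6.19e-07). Its neighbour Arxes1 was at 2.57 ± 0.09 and 2.73 ± 0.13 and did not pass. The promoter windows of Arxes1 and Arxes2 are identical over 300 bases. Their transcripts and probes were not compared here. Tceal7 was at 2.75 and 2.67, far under the guide in both groups. Bex6, which lies outside the X chromosome, was at 5.41 ± 0.19 and 5.00 ± 0.75. It was lower by 0.76 without HSC-enriched replicate 3 (adjusted p = 0.017) and did not pass with it (-0.42, adjusted p = 0.4).

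**Figure D3:**
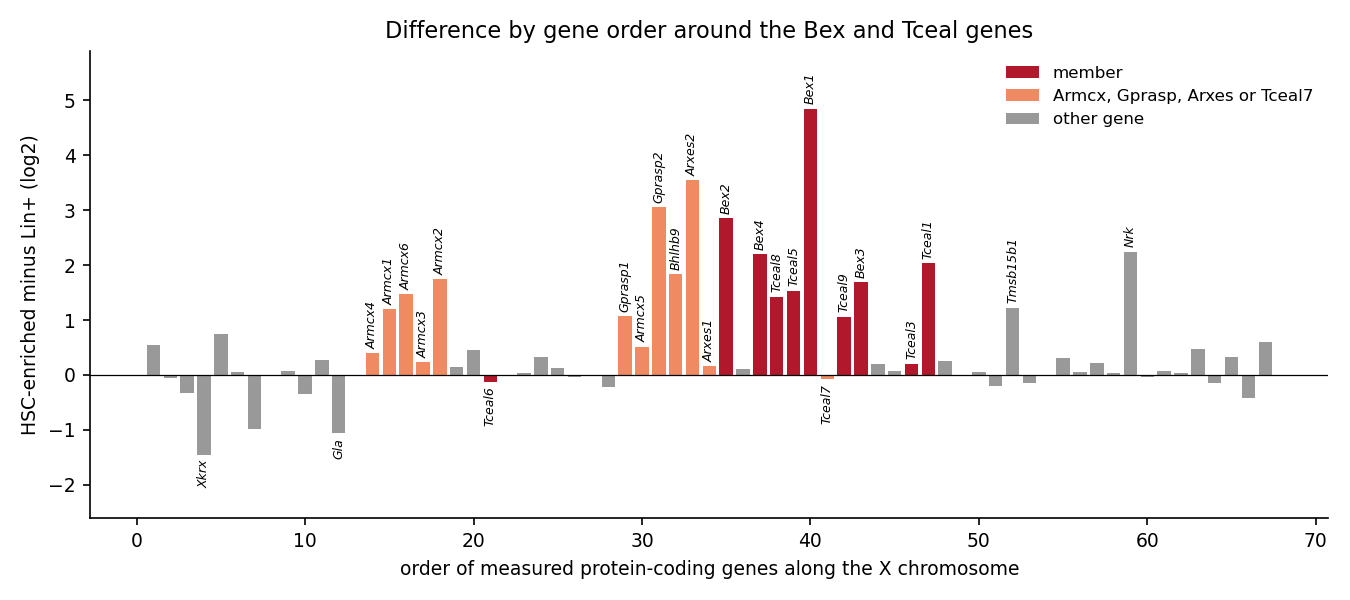
Difference between HSC-enriched and Lin+ means (log2) for 67 measured protein-coding genes in their order along the X chromosome, with the 10 members in red, their relatives in orange and other genes in grey. Members and relatives make up most of the tall bars in the middle of the stretch, while Tceal3, Tceal6, Tceal7, Armcx3 and Arxes1 among them are near 0.

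The other 45 measured genes of the same stretch were closer to the background, with 6 higher (13.3%), 5 lower (11.1%) and a median of 0.05. Nrk, a kinase gene known from placenta, rose by 2.25 ± 0.20 (adjusted p = 1.8e-05). Tmsb15b1, a beta-thymosin gene, rose by 1.23 (adjusted p = 0.014) but not without HSC-enriched replicates 3 and 4 (0.87, adjusted p = 0.135). Trmt2b, a tRNA methyltransferase gene, rose by 0.75. Xkrx, Gla (alpha-galactosidase A) and Cenpi, a centromere protein gene, fell by 1.46, 1.06 and 0.98, and Cenpi lost its call without HSC-enriched replicates 3 and 4 (adjusted p = 0.0754). Hnrnph2 (0.00), Rpl36a (0.27) and Zmat1 (0.45) did not pass. For Zmat1 the adjusted p was 0.0348 when Lin+ replicate 1 was dropped (difference 0.57) and 0.0469 when HSC-enriched replicate 1 was (0.55). Relatives and other neighbours together, Bex6 included, gave 14 higher and 5 lower of 58. The 5 fell to 3 without Lin+ replicate 2, Lin+ replicate 4, HSC-enriched replicate 1 or HSC-enriched replicate 2.

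Over the whole X chromosome, 16.8% of 967 genes, members included, were called higher, against 15.5% of all genes. Lower calls made up 8.07%, against 12.4%, and the median difference was 0.04, against 0.02. Xist, the RNA that silences an X chromosome in female cells, was bright on all arrays (10.26 to 11.37) and rose by 0.78 (adjusted p = 0.00146). The Y-linked genes Eif2s3y, Kdm5d and Uty did not exceed 3.10 on any array, which is under the guide, and did not pass. The part of Xist in the values of X-linked genes was not tested.

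With 7 bases between TGACG and the E-box, 8 genes that are no members were measured. Of these, 4 rose (50%, against 15.5% of all genes) and 1 fell (12.5%, against 12.4%). Armcx1 and Armcx6, described above, lie in the same stretch of the X chromosome as the members. Of the other 6 genes, E2f3 (0.63) and Ubap2 (0.64) rose and Marchf8 fell by 0.93. Ilk, Vps33a and Zfp459 did not pass. With 9 bases between, Armcx4 of that stretch was called higher, with the limits given above, and 2 others did not pass, which makes 1 of 3 (33.3%) higher and 0 (0.00%) lower. Of 1643 genes with CACGTG in a window, members left out, 21.3% were called higher and 14.0% lower. Of the 580 of them with CACGTGAC, 18.8% were called higher and 17.6% lower. These genes were named because they hold the pair, after the pair had been found.

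Elongation factors, the proteins that Tceal genes take their name from, were called at shares near those of all genes. Of 35 measured, 6 rose and 3 fell, or 17.1% and 8.57%, against 15.5% and 12.4% of all genes. Their median was 0.09. Tcea2, a TFIIS gene, rose by 1.04 ± 0.14 (adjusted p = 0.000215). Aff4, a scaffold of the super elongation complex, rose by 0.89, and Ccnt1, the cyclin of the elongation kinase, by 0.87. Elof1 fell by 0.77, Eaf2 by 0.83 with both means under the guide, and Nelfcd, a subunit of the pausing factor NELF, by 0.46. Nelfcd lost its call without HSC-enriched replicates 3 and 4 (adjusted p = 0.0847). The bright genes Supt4a, Elob and Nelfa differed by -0.19, 0.04 and 0.03 and did not pass.

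Of 11 measured genes of p75 and neurotrophin signalling, 2 rose (18.2%) and 1 fell (9.09%), with a median of 0.01. Over all genes the shares were 15.5% and 12.4%. Ngfr, which encodes p75 itself, was at 5.17 ± 0.18 in Lin+ and 4.97 ± 0.12 in HSC-enriched cells, near the guide, and did not pass. The receptor genes Ntrk2 and Ntrk3 were under the guide in both groups. Maged1, which encodes the p75 adaptor NRAGE, stood at 6.38, 6.67, 6.72 and 6.38 on Lin+ arrays, and its HSC-enriched mean was 9.56 ± 0.21. It rose by 3.02 ± 0.14 (adjusted p = 3.16e-07). Mapk8, which encodes the kinase JNK1, rose by 0.85, and Sort1, which encodes the co-receptor sortilin, fell by 1.04. Traf6, Zfp110 and Zfp369 did not pass, though Zfp369 did without Lin+ replicate 4 (0.40, adjusted p = 0.0358).

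Of 4 genes listed as further partners of Bex proteins, Lmo2 rose from 7.72 ± 0.24 to 9.10 ± 0.08 (adjusted p = 2.05e-05) and its cofactor Ldb1 by 1.01 (adjusted p = 0.000133). Pou2f2, which encodes the octamer factor Oct-2 of B cells, fell by 1.03 (adjusted p = 0.00186). Nhlh2, a neuronal factor, was under the guide in both groups and did not pass.

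**Figure D4:**
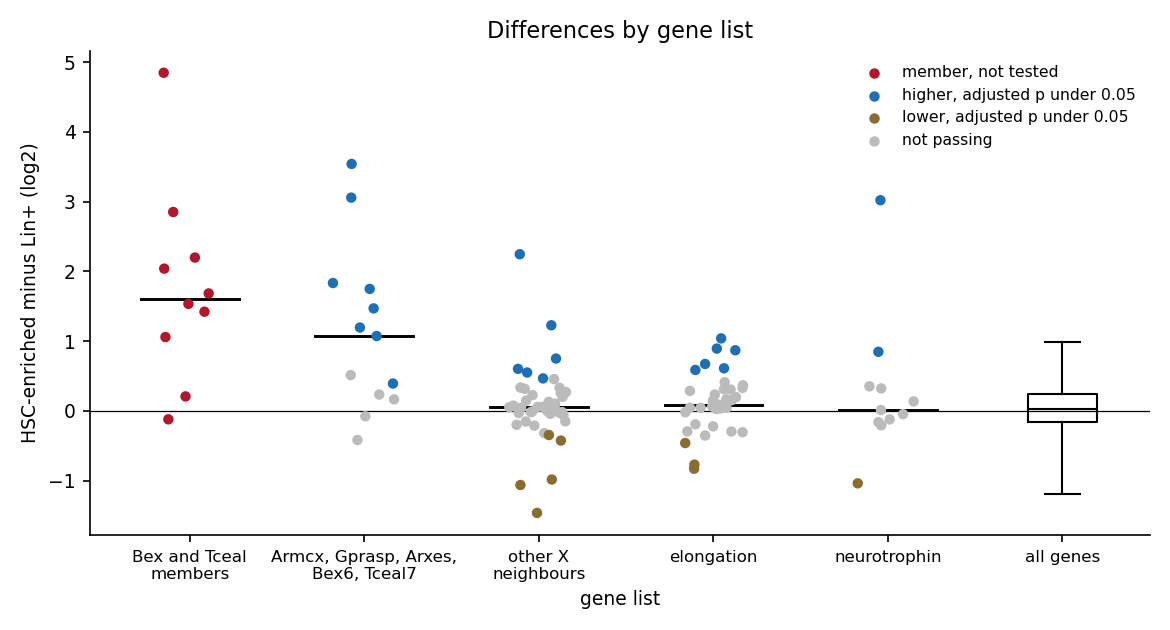
Difference between HSC-enriched and Lin+ means (log2) for each gene of the members, their relatives, the other X-chromosome neighbours, the elongation list and the neurotrophin list (points; black bars are medians), with all genes as a box with whiskers at the 5th and 95th percentiles. Medians of members and relatives are 1.61 and 1.07, and those of the other 3 lists lie between 0.01 and 0.09.

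For the 8 members at least 2-fold higher, the 3 genes with the nearest pattern were taken by root mean square distance over the 8 arrays, each gene centred on its own mean. For Bex1 these were Meis1, Ctla2b and Hlf, at distances of 0.23, 0.32 and 0.34. Meis1 and Hlf encode transcription factors of HSCs, and Ctla2b a protease inhibitor. Bex2 was nearest to Rtl8c, Akr1c13 and Lrch2 (0.26 to 0.31). Bex4 was nearest to Itm2a, Sgce and Prelid2 at larger distances of 0.48 to 0.54.

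The closest match of any member was between Tceal9 and Wdr43, at 0.068, followed by Pecr at 0.070 and Slc9b2 at 0.089. Distances are not scaled by the size of a difference, which was smallest for Tceal9 among these 8 members (1.06). The nearest genes of Bex3 were Ppp1r13b, Rab26os and Ppan, and those of Tceal5 were Clstn3, Fut10 and Cmtm8. Pcdh7, Nrip1 and Fads2 were nearest to Tceal1, and Acy3, Ece1 and Ttc27 to Tceal8. Of these 24 genes 3 are X-linked (Rtl8c, Lrch2 and Itm2a), against 4.03% of all genes. Correlations over the 8 arrays were 0.939 to 0.998 for them, and as all points share the 2 groups, they mainly repeat the group difference.

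**Figure D5:**
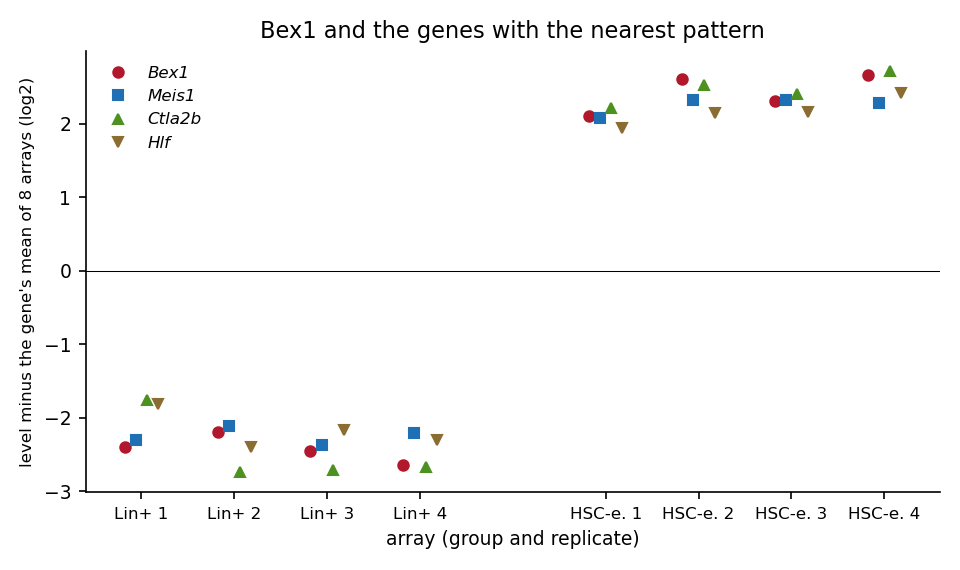
Level of Bex1 and of its 3 nearest genes, Meis1, Ctla2b and Hlf, on each array, minus the gene's mean of 8 arrays (log2). All 4 genes lie below 0 on the 4 Lin+ arrays and above 0 on the 4 HSC-enriched arrays.

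Markers of other cell types were read beside these results, where 15.5% of all genes were called higher and 12.4% lower. Megakaryocyte genes rose in 5 of 8 cases, fell in 0 and did not pass in 3. They averaged 6.66 to 7.13 on HSC-enriched and 5.64 to 6.23 on Lin+ arrays. Of those that rose, Gp9 and Vwf were higher by 2.14 and 2.09. Endothelial genes rose in 2 of 10 cases (Emcn and Tie1) and fell in 1, averaging 5.87 to 6.43 against 5.24 to 5.47, while Cdh5 and Kdr did not pass. Their part in the result was not tested. None of 8 neural and glial genes rose and 1 fell, averaging 4.39 to 4.55 against 4.75 to 4.94. These averages are under the guide, which does not place every single gene under it. Of 10 stromal genes 1 rose and 2 fell, with averages of 4.24 to 4.40 against 4.34 to 4.39, also under the guide. All 8 B cell and all 7 erythroid genes fell, as did 11 of 12 neutrophil genes.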

How the data were processed

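Arrays were 1-colour Affymetrix MouseGene ST arrays (1.0st and 2.0st are both named, without saying which sample went on which), hybridised with cDNA amplified from around 5 ng of total RNA, per the labels' protocols. The deposited values are on a log2 scale, read from their range of 1.66 to 13.1, and per the submitters' processing notes the tools were RMA and Partek (versions not named). The sources used here name no genome build or probe set definition. The arrays' number limits the precision.

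Of 24973 probe sets, 24015 had 1 gene symbol, 0 several and 958 none. For 23922 of these, the symbol was taken by Entrez ID from RefSeq's gene list (GRCm38.p6, used for names and gene order). The brightest probe set of a symbol was kept, giving 24011 genes. Promoter windows came from RefSeq (GRCm38.p6).

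Differences are HSC-enriched minus Lin+ means. Genes that are no members were tested by limma's lmFit and eBayes (version 3.58.1, in R 4.3.3) without covariates, adjusted by Benjamini-Hochberg over all genes, with a threshold of 0.05; the standard errors are limma's. The fit was tested on simulated data. No 2 arrays held the same values. Members and lists were chosen with earlier results of these data known. Genes were named by rule: all members and relatives, partners, gate antigens and sex-linked genes. In each other list these were up to 3 with the largest rise, 3 with the largest fall and 3 not passing with the highest level. The 3 nearest in pattern were named for the 8 members with at least a 2-fold difference and the higher group mean above the guide. Ngfr, Ntrk2, Ntrk3, the marker genes and the genes holding the promoter pair were named outside the rule, after their values were seen. The alternatives were centring, quantile normalization, filters on low values (above the 40th percentile, or the median, on at least 4 arrays), the mean of probe sets, array weights, a robust trend, a block for replicate number, each array left out, and HSC-enriched replicates 3 and 4 left out together. Figures were drawn with matplotlib 3.10.9.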

Additional observations from a re-analysis of the deposited data

Results flagged for a closer look

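Single arrays stood far from the other 3 of their group in 10 of 166 groups of 4 examined over the 83 named genes, and chance alone gives about 1 in 20. None of the 10 belonged to a member. Among relatives, Arxes2 was low on HSC-enriched replicate 2 (6.50, others 7.27 to 7.36) and Bex6 on Lin+ replicate 1 (5.14, others 5.48 to 5.55). Lin+ replicate 2 was low for Nelfa (8.95, others 9.25 to 9.30) and Ttc27 (6.38, others 6.51 to 6.52) and high for Ccnt1 (8.38, others 7.90 to 7.96). Lin+ replicate 4 was low for Zfp110 (6.74, others 7.04 to 7.05), and Lin+ replicate 1 was high for Ctla2b (5.59, others 4.60 to 4.67). HSC-enriched replicate 4 was low for Trmt2b (7.90, others 8.07 to 8.10), replicate 3 for Acy3 (6.45, others 6.95 to 6.98), and replicate 2 was high for Slamf1 (7.39, others 7.07 to 7.11).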

How the results depend on the processing

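Each member's difference moved by less than its SD between arrays, pooled over both groups, in all 150 comparisons with an alternative. Many of these could not have come out otherwise. With 4 arrays per group, leaving out 1 array cannot move a difference by that SD. The robust trend, the replicate block and the mean of probe sets left every member's difference unchanged. The count is therefore no measure of stability. Tceal6, whose groups overlap, ran from -0.30 to 0.02 when 1 array was left out and so changed sign. Filters cannot change a member's difference. At either level 8 of 10 members passed, while 14819 of 24011 genes passed at the 40th percentile and 12510 at the median. Bex2, Tceal1 and Tceal5 were under the guide on all Lin+ arrays. At the median they passed only through HSC-enriched arrays, and members were chosen on that contrast. The members' median difference ran from 1.55 to 1.68 without 1 array and was 1.64 without HSC-enriched replicates 3 and 4. The number of members with separate groups was 7 to 8. Of the 58 relatives and X-chromosome neighbours (Bex6, which is not X-linked, included), the 5 lower calls became 3 with quantile normalization, the filter at the median, the replicate number as a block, and HSC-enriched replicates 3 and 4 left out, and 3 to 5 without 1 array. Lower calls among relatives were 0 to 1 without 1 array. The cause was not tested. Same-numbered arrays did not deviate together (correlations of -0.15, 0.06, 0.03 and -0.10), so the numbers are not taken as pairs; with the replicate block, Armcx4 lost its call (adjusted p = 0.0568). Among other named genes, 6 comparisons lost a call and 6 gained one, in 4 genes each, and Zmat1 also passed with array weights (adjusted p = 0.0459). Lin+ levels under the guide limit the differences of Bex2, Bex4, Tceal1, Tceal5, Gprasp2, Arxes2, Armcx1, Armcx4 and Nrk.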
